A study of Mus musculus with 31 samples.

Results

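A set of 7 genes of iron handling was chosen by a rule of function, with no threshold on a measured value: the ferritin subunits Fth1 and Ftl1, the transferrin receptor Tfrc, the iron exporter Slc40a1, the iron importer Slc11a2, and the iron regulatory proteins Aco1 and Ireb2. Of the 7 genes, 6 had counts here, out of 20436 gene symbols in all. Fth1 was not analysed here. The 6 genes passed the filter on low counts in mRNA, where 14215 genes were tested, and in ribosome footprints, where 13953 were tested.

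The samples were cortices of mice at postnatal days 29 to 34 of 4 genotypes: wild type (WT), Fmr1-deficient (FXS, a mouse model of fragile X syndrome), Rps6kb1-deficient (S6K1, named for the kinase that the gene encodes), and deficient in both genes (DKO). Polyadenylated mRNA was sequenced in 4 libraries of each genotype, and ribosome-protected fragments (footprints) in 4 WT, 5 FXS, 3 S6K1 and 3 DKO libraries. Strain, sex, the alleles and whether mRNA and footprints came from the same animals are not given in the sources used here, so p-values measure the spread between these libraries. Levels are CPM, counts per 1000000 counts of the library, scaled by TMM within each assay, and coding lengths were not used here, so levels are compared between libraries and not between genes.

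Cells match iron uptake to iron need mainly after transcription. When iron is scarce, the iron regulatory proteins bind short hairpins called iron-responsive elements: in the 5′ UTR of ferritin and Slc40a1 mRNA this binding blocks the start of translation, and in the 3′ UTR of Tfrc mRNA it protects the transcript from decay. In the brain, oligodendrocytes and microglia are known for their high ferritin content, and the endothelium of brain vessels for taking up transferrin through Tfrc.

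The footprint share of a gene set against its mRNA share differed widely among the 6 genes in WT cortex. Slc40a1 and Ftl1 had few footprints for their mRNA, Slc11a2 slightly few, and Aco1, Ireb2 and Tfrc many. The 4 WT footprint and 4 WT mRNA libraries were compared in 1 fit over the 13654 genes tested in both assays, in which coding length cancels. The shares set against each other below come from this fit, scaled by TMM over both assays. Their ratios therefore differ from the ratios of the CPM values. Each gene's log2 ratio of footprints to mRNA was tested with edgeR's quasi-likelihood test, and a gene counts as called where its adjusted p (Benjamini-Hochberg) was under 0.05. All 6 genes were called, 3 lower and 3 higher, but 73.2% of all tested genes were called, 36.2% higher and 37.1% lower, so the call itself says little and the position among all genes is given for each. The median gene stood at -0.04, and the central 90 percent of genes ran from -2.17 to 1.70. Assay and batch cannot be told apart in this comparison, because each batch held libraries of 1 assay.

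**Figure D1:**
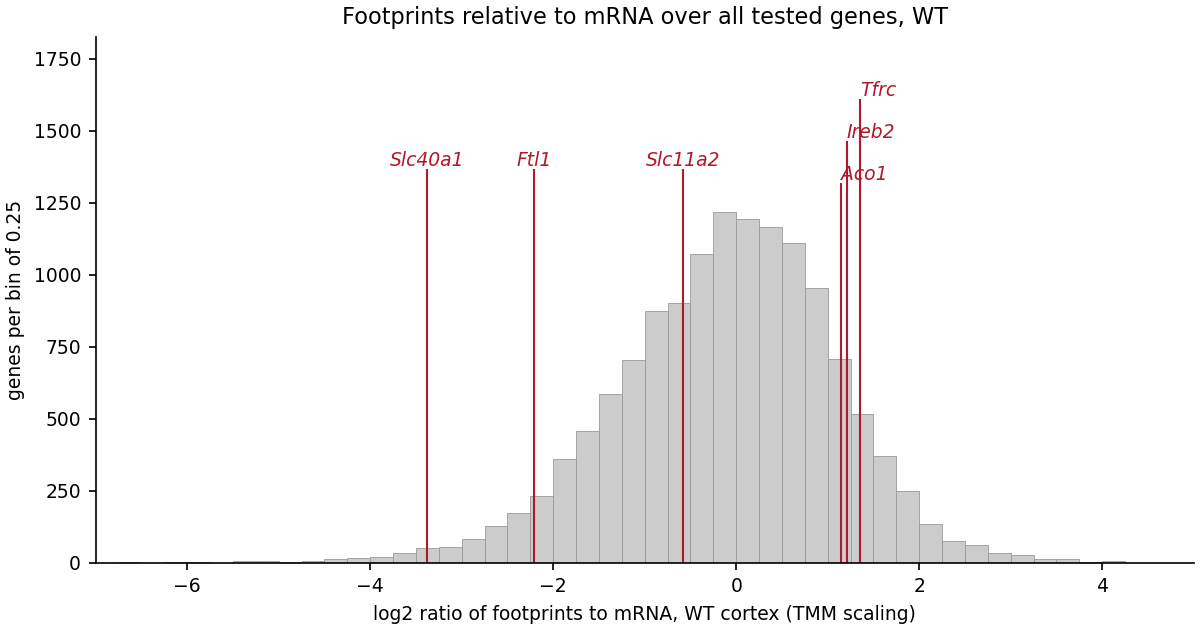
Distribution of the log2 ratio of footprints to mRNA over the 13654 genes tested in WT cortex (grey bars, genes per bin), with the 6 iron genes as red lines. Slc40a1 (-3.38) and Ftl1 (-2.21) lie in the lower tail, Slc11a2 (-0.58) nearer the centre, and Aco1 (1.14), Ireb2 (1.21) and Tfrc (1.35) in the upper part.

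Ftl1 encodes the light subunit of the ferritin shell that stores iron (chr7:45457944-45459886, mm10). Its mRNA stood at 449.8, 489.0, 421 and 501.5 CPM in the 4 WT libraries, a mean of 465 ± 36.9 (SD, n = 4). Its footprints stood at 69.6, 80.4, 66.1 and 108.8 CPM, a mean of 81.2 ± 19.4 (SD, n = 4). Every WT footprint value lay below every WT mRNA value, and the same held across all 31 libraries, where footprints reached at most 136.5 CPM and mRNA at least 353.8 CPM. The log2 ratio was -2.21 ± 0.146 (SE; adjusted p = 4.30e-08, edgeR quasi-likelihood), so the mRNA share was 4.62 times the footprint share, and only 4.73% of genes lay lower. RefSeq lists 3 ferritin light chain pseudogenes, on chromosomes 4, 10 and 13, and reads shared with them could have moved its counts, so its level is uncertain.

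Slc40a1 encodes ferroportin, the only known iron exporter of mammalian cells (chr1:45908070-45926532). Its mRNA stood at 15.3, 12.1, 15.3 and 13.3 CPM in WT. Its footprints stood at 1.77, 1.24, 0.601 and 0.830 CPM, which rest on 35, 33, 21 and 17 counts. The log2 ratio of -3.38 ± 0.271 (SE; adjusted p = 1.99e-07, edgeR quasi-likelihood) was the lowest of the 6, and 1.02% of all genes lay lower. The mRNA share was 10.4 times the footprint share, with no overlap between the assays.

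Genes of some cell types shared this position. Of 8 microglial marker genes 8 were called lower, with a median log2 ratio of -1.78 (from -2.43 to -0.82), and their summed WT level was 557 CPM in mRNA against 124 CPM in footprints. Of 6 endothelial markers 6 were called lower, with a median of -3.26 (from -6.25 to -0.87) and summed levels of 89.3 and 8.94 CPM. All 3 measured blood markers, which are haemoglobin genes, were called lower, with a median of -6.22, and summed to 1469 CPM in mRNA and 24.2 CPM in footprints. Of 6 neuronal markers 5 were higher and 1 was lower (median 1.10). Of 10 oligodendrocyte markers 6 were higher and 2 lower (median 0.57), of 6 astrocyte markers 1 was higher and 2 lower (median -0.31), and the 4 tested choroid plexus markers had a median of -0.45 (from -3.30 to -0.07). No marker of these lists in the tables was at 0. The part of cell makeup in the low ratios of Ftl1 and Slc40a1 was not tested, and in bulk tissue fewer cells of a type and less RNA per cell cannot be told apart.

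Tfrc, the receptor that brings transferrin-bound iron into cells (chr16:32608896-32632794), lay at the other end. Its mRNA stood at 56.4, 69.2, 84.4 and 73.8 CPM in WT, and its footprints at 144.8, 202.1, 112.5 and 122.8 CPM. The footprint values lay above the mRNA values without overlap. The log2 ratio was 1.35 ± 0.182 (SE; adjusted p = 3.08e-05, edgeR quasi-likelihood), a footprint share 2.55 times the mRNA share, and 90.5% of genes lay lower. Slc11a2, the divalent metal transporter that carries iron across membranes (chr15:100387898-100424209), had mRNA levels of 30.2, 34.6, 33.1 and 37.4 CPM and footprint levels of 19.8, 21.9, 15.4 and 15.7 CPM. Its log2 ratio was -0.58 ± 0.137 (SE; adjusted p = 0.00194, edgeR quasi-likelihood). With 32.4% of genes lower, it was the only 1 of the 6 between the lower and upper quartiles of all genes (-0.86 and 0.69). Aco1, Ireb2 and Tfrc lay above the upper quartile but inside the central 90 percent.

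The regulators Aco1 and Ireb2 had closely similar ratios. Aco1 encodes iron regulatory protein 1, which is a cytosolic aconitase when it holds an iron-sulphur cluster (chr4:40143265-40199009). Its WT mRNA stood at 35.0, 43.3, 42.9 and 35.8 CPM and its footprints at 66.3, 67.2, 71.4 and 73.9 CPM. Its log2 ratio was 1.14 ± 0.101 (SE; adjusted p = 4.60e-07, edgeR quasi-likelihood), with 86.9% of genes lower. Ireb2 encodes iron regulatory protein 2, which is degraded when iron is plentiful (chr9:54862658-54912534). Its WT mRNA stood at 64.7, 47.5, 48.6 and 50.5 CPM and its footprints at 102.8, 93.7, 98.0 and 99.5 CPM. Its log2 ratio was 1.21 ± 0.114 (SE; adjusted p = 8.22e-07, edgeR quasi-likelihood), with 88.1% of genes lower. Their ratios differed by less than their standard errors, and Tfrc lay within its own standard error of Ireb2.

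**Figure D2:**
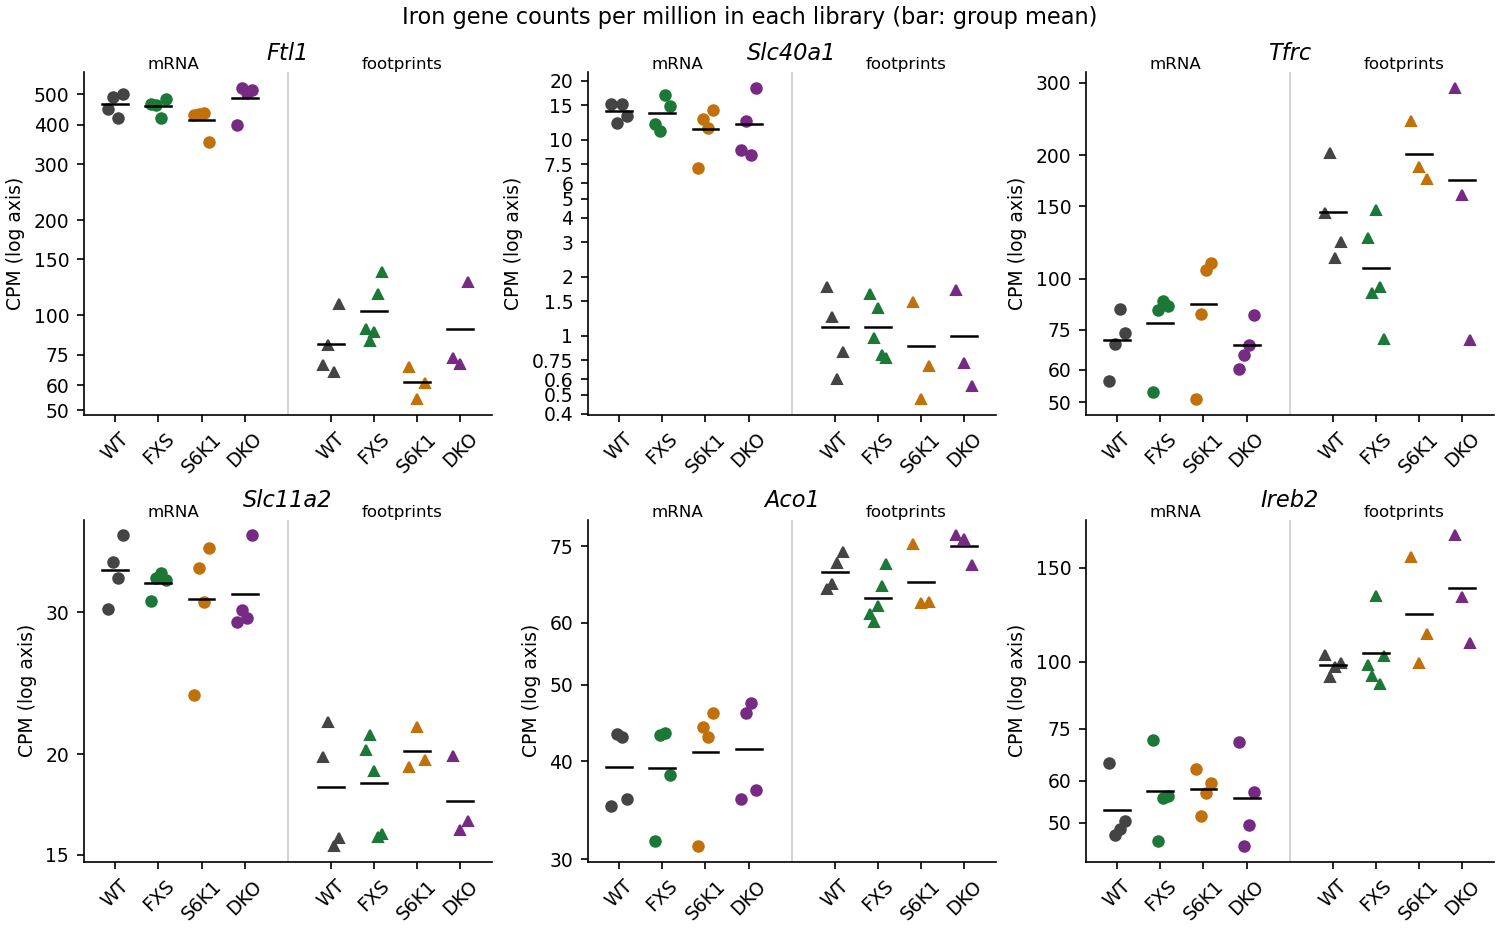
CPM of each iron gene in every library, on log axes, with mRNA (circles) on the left of each panel, footprints (triangles) on the right, 1 column per genotype and a bar at each group mean. Ftl1 and Slc40a1 footprints sit far below their mRNA values in every genotype, while within an assay every mutant column overlaps WT except Ireb2 footprints in DKO.

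Of the 57 other genes of iron storage, uptake, export, regulation by iron-responsive elements, heme metabolism and iron-sulphur cluster assembly, 53 were tested in both assays. In WT 20 of these had a called ratio above 0, 22 below 0, and 11 were not called; their median log2 ratio was -0.10 beside -0.04 over all genes. With the 6 genes included, storage held 3 higher and 1 lower of 4, uptake 3 higher and 6 lower of 13, and export 3 lower and none higher of 4. The list of the iron-responsive element system held 4 higher and 5 lower of 9, heme metabolism 7 higher and 2 lower of 12, and iron-sulphur assembly 6 higher and 8 lower of 17. The lowest ratios among the other genes were those of the metal importer Slc39a8 (-2.24 ± 0.368, SE), the erythroid heme synthesis enzyme Alas2 (-2.18 ± 0.243) and the mitochondrial iron importer mitoferrin 1, Slc25a37 (-2.17 ± 0.160). Alas2 mRNA also carries an iron-responsive element in its 5′ UTR. Among the highest were those of the iron chaperone Pcbp1 (1.48 ± 0.111) and Ciapin1 (1.47 ± 0.0960), a factor of cytosolic iron-sulphur assembly.

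The same pattern was measured in the mutants, each with its own fit. In FXS 72.6% of all genes were called (34.3% higher, 38.3% lower), in S6K1 62% (31.3% and 30.7%) and in DKO 66.8% (33.8% and 33%). All 6 iron genes were called in FXS and in DKO with the directions they had in WT, and 5 of 6 in S6K1. The ratio of Slc40a1 was -3.37 ± 0.236 in FXS cortex, -3.30 ± 0.390 in S6K1 cortex and -3.24 ± 0.438 in DKO cortex (SE). Leaving out 1 library at a time, it ran from -3.895 to -3.019 in S6K1 and from -3.851 to -2.952 in DKO. Ftl1 stood at -1.90 ± 0.134 in FXS, -2.40 ± 0.167 in S6K1 and -2.09 ± 0.215 in DKO (SE). Tfrc stood at 0.71 ± 0.206 in FXS, 1.56 ± 0.242 in S6K1 and 1.69 ± 0.366 in DKO. The DKO value was 1.10 without footprint replicate 1, the library of batch 1, and 2.08 without footprint replicate 3. Aco1 ran from 0.98 to 1.21 and Ireb2 from 1.11 to 1.66 over the 4 genotypes. Slc11a2 stood at -0.57 in FXS, -0.28 in S6K1 (adjusted p = 0.188, edgeR quasi-likelihood, not called) and -0.50 in DKO. These fits hold no batch term, and the difference between genotypes is tested below with batch in the model.

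**Figure D3:**
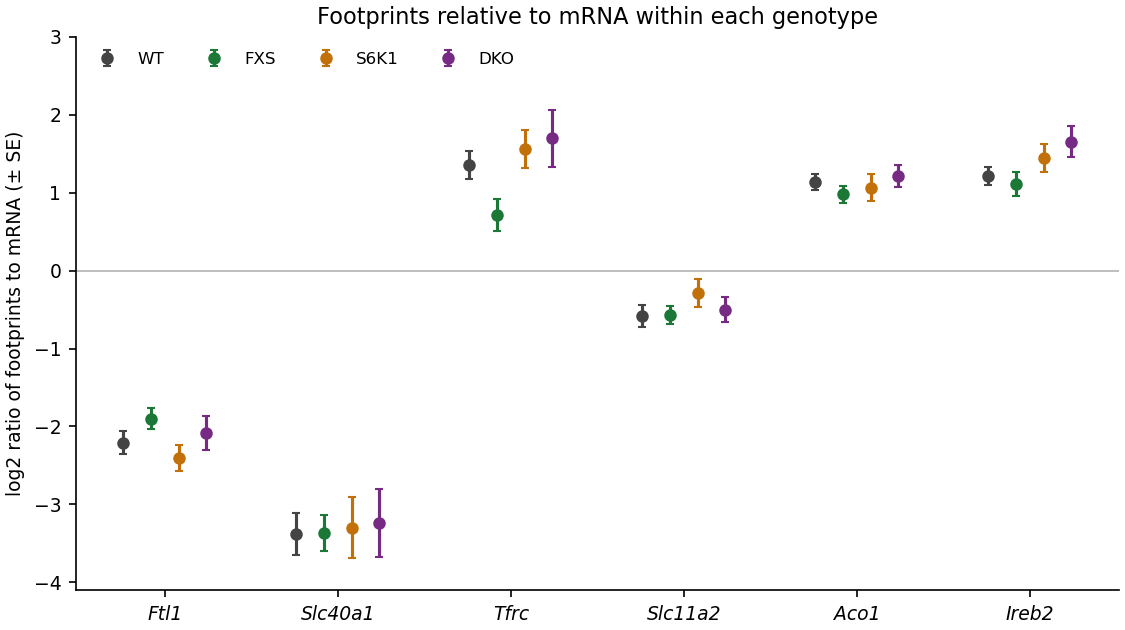
Log2 ratio of footprints to mRNA for the 6 iron genes by genotype, each from its own fit; error bars are standard errors. Slc40a1 estimates lie between -3.38 and -3.24. Leaving out 1 library, Slc40a1 ran from -3.895 to -3.019 in S6K1 and from -3.851 to -2.952 in DKO. Tfrc ranges from 0.71 in FXS to 1.69 in DKO, where a single library moved it to 1.10.

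The genotype comparisons ask whether loss of Fmr1, of Rps6kb1 or of both altered the mRNA, the footprints or the translational efficiency (TE, the change of footprints minus the change of mRNA) of the iron genes. The labels were checked by the targeted genes. The mean level of Fmr1 footprints was 117 CPM in WT and 133 in S6K1, but 7.85 in FXS and 10.5 in DKO. Rps6kb1 footprints averaged 28.9 CPM in WT and 32.5 in FXS, but 10.2 in S6K1 and 11.6 in DKO. Library totals ran from 12134624 to 17267368 counts in mRNA and from 16633416 to 34853751 in footprints.

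None of the 6 iron genes was called in any of the 18 comparisons by edgeR's quasi-likelihood test. In mRNA, the share of all genes called was 0.155% in FXS against WT, 0.0211% in S6K1 against WT, 5.23% in DKO against WT, 0.0281% in DKO against FXS, 0.387% in DKO against S6K1 and 0% for the interaction. The interaction asks whether loss of Fmr1 acts alike with and without Rps6kb1. In footprints these shares were 0.165%, 0.00717%, 0.366%, 0.0143%, 0.00717% and 0%. In TE they were 0.0952%, 0.0293%, 4.88%, 0.0146%, 0.00732% and 0%. With shares this low, 0 of 6 does not set the iron genes apart. The interaction gave an unadjusted p under 0.05 for 497 genes in mRNA, 428 in footprints and 565 in TE. Of the 108 tests on iron genes 13 (12%) had an unadjusted p under 0.05, a share that ran from 3.07% to 24.9% over all genes in the 18 comparisons. DESeq2 called 1 of the 108 and limma voom none.

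The largest differences that missed the threshold involved Tfrc, Ftl1 and Slc40a1. By edgeR's adjusted p the closest were in mRNA, in DKO against S6K1. There Tfrc differed by -0.28 ± 0.102 (SE; adjusted p = 0.194, edgeR quasi-likelihood) and Ftl1 by 0.23 ± 0.0846 (adjusted p = 0.206). In the mRNA interaction Tfrc stood at -0.40 ± 0.144 and Ftl1 at 0.25 ± 0.119 (SE; unadjusted p = 0.0109 and 0.0485, edgeR quasi-likelihood). Tfrc footprints in FXS stood at 125.4, 92.5, 146.7, 95.7 and 71.1 CPM, a mean of 106 ± 29.7 (SD, n = 5) against 146 ± 40.0 in WT (SD, n = 4). The ranges overlapped, and the fitted log2 change was -0.49 ± 0.155 (SE; adjusted p = 0.302, edgeR quasi-likelihood). The TE of Tfrc in FXS differed from WT by -0.62 ± 0.206 (SE; adjusted p = 0.232, edgeR quasi-likelihood), and this is the 1 test that DESeq2 called (-0.62, adjusted p = 0.0497). Over the other alternatives the edgeR and limma values ran from -0.72 to -0.55, with adjusted p-values from 0.130 to 1. In the authors' deposited table the footprint change of Tfrc in FXS was -0.49, with an adjusted p of 0.0639, and the TE change -0.63, with an adjusted p of 0.544.

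Ftl1 footprints in FXS stood at 90.2, 82.9, 88.4, 116.8 and 136.5 CPM, a mean of 103 ± 22.9 (SD, n = 5) against 81.2 ± 19.4 in WT. Again the ranges overlapped, and the fitted log2 change was 0.38 ± 0.143 (SE; adjusted p = 0.394, edgeR quasi-likelihood). Its mRNA in FXS averaged 458 CPM against 465 in WT, and its TE change was 0.39 ± 0.176 (SE; adjusted p = 0.343, edgeR quasi-likelihood). In S6K1 Ftl1 footprints stood at 68.7, 54.2 and 61.1 CPM and in DKO at 73.3, 69.9 and 126.9 CPM. Without WT footprint replicate 3 the FXS change of Ftl1 was 0.22 in footprints and 0.23 in TE. The authors' deposited table gives the FXS footprint change of Ftl1 as 0.37, with an adjusted p of 0.224.

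Slc40a1 footprints differed from WT by -1.12 ± 0.316 in S6K1 (SE; adjusted p = 0.319, edgeR quasi-likelihood) and by -0.77 ± 0.302 in DKO (adjusted p = 0.230). These rest on few counts: 32, 8 and 17 in the 3 S6K1 libraries and 43, 25 and 13 in DKO, at 1.49, 0.476 and 0.706 CPM and at 1.72, 0.731 and 0.553 CPM. The S6K1 and DKO ranges overlapped the WT range of 0.601 to 1.77 CPM. Without the batch term the differences were -0.28 and -0.13. Endothelial markers had median footprint changes of -0.50 in S6K1, -0.34 in DKO and 0.04 in FXS, with none of the 6 called. Their median mRNA changes were -0.43, -0.42 and 0.00. Their summed footprint level, without a batch term, averaged 8.94 CPM in WT, 10.3 in S6K1 and 9.28 in DKO. Median footprint changes in S6K1 and DKO were 0.03 and -0.08 for microglial markers and 0.07 and -0.03 for astrocyte markers. They were -0.47 and -0.70 for oligodendrocyte markers and -0.08 and -0.05 for neuronal markers. The part of cell makeup in the Slc40a1 differences was not tested. In mRNA, Tfrc differed from WT by 0.26 ± 0.102 in S6K1 (SE; adjusted p = 0.624, edgeR quasi-likelihood), at 50.9, 82.0, 104.8 and 109.3 CPM, and by 0.16 without S6K1 mRNA replicate 4.

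**Figure D4:**
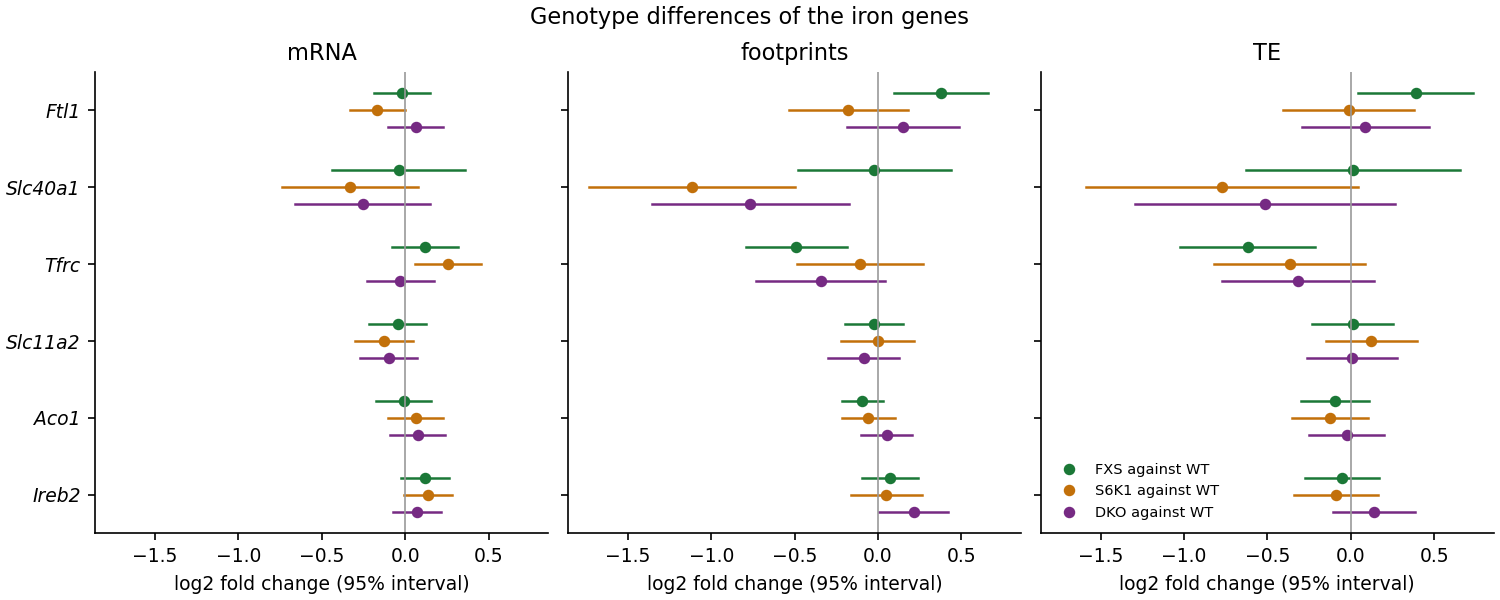
Log2 fold change of each iron gene in FXS, S6K1 and DKO against WT, in mRNA, footprints and TE; points are edgeR estimates and lines the 95% interval from the SE, unadjusted. The widest intervals are those of Slc40a1 in footprints and TE, and no point passed the adjusted threshold.

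Each mutant group was also set against WT by its range. Ranges overlapped for every iron gene, in both assays and in all 3 mutants, with 1 exception: Ireb2 footprints in DKO, at 172.5, 132.1 and 108.2 CPM, all lay above the WT range of 93.7 to 102.8 CPM. The share of all genes whose ranges did not overlap WT was 3.34% in FXS, 1.6% in S6K1 and 6.15% in DKO for mRNA, and 1.74%, 9.91% and 16.3% for footprints. The exception falls where that share was highest, and its adjusted p was 0.310 by edgeR. The highest value came from batch 1, where Ireb2 footprints averaged 165 CPM against 98.6 to 118 in batches 2 to 4, and that batch held no WT library.

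Batch moved most of the iron genes. A test for any difference between batches, added after the data had been seen, called 40.5% of all genes in mRNA and 53.9% in footprints. In footprints it called 5 of 6 iron genes: Tfrc (adjusted p = 0.00114, edgeR quasi-likelihood), Slc40a1, Ireb2, Slc11a2 and Ftl1, but not Aco1 (0.117). In mRNA it called Ireb2, Tfrc, Aco1 and Slc11a2, but not Slc40a1 (0.201) or Ftl1 (0.586). The test held genotype in the model, but the batch means and marker sums below are not adjusted for genotype. Footprint batch 1 held only S6K1 and DKO libraries, batch 2 held no DKO and batch 4 no S6K1, so these values mix genotype with batch. Tfrc footprints averaged 267 CPM in batch 1, 137 in batch 2, 171 in batch 3 and 94.6 in batch 4. Ftl1 footprints averaged 71.0, 74.2, 74.97 and 111 CPM. Tfrc mRNA averaged 55.1 CPM in batch 5 and 75.02 to 87.6 in batches 6 to 8. Batch 5 also had summed microglial markers of 212 CPM against 654 to 703 in the other mRNA batches, and summed endothelial markers of 31.8 CPM against 76.6 to 111. Its astrocyte sum was 557 CPM against 908 to 1020, its oligodendrocyte sum 1883 against 2782 to 2916, and its neuronal sum 5293 against 6233 to 6637. In footprints, batch 4 had the lowest endothelial sum (6.02 CPM against 10.4 to 13.4), microglial sum (99.1 against 139.7 to 163.5), astrocyte sum (874 against 1234 to 1330) and oligodendrocyte sum (2262 against 2718 to 2931), and the highest neuronal sum (8099 against 7279 to 7739). The part of cell makeup in the batch differences was not tested.

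Oligodendrocyte markers differed between genotypes in footprints and TE, and their part in the values of the iron genes was not tested. Of the 10 markers 3 were called lower in FXS footprints (median log2 fold change -0.58) and 4 in DKO footprints (median -0.70). The share of all genes called there was 0.165% and 0.366%. In S6K1 footprints none was called (median -0.47). In TE 7 were called lower in DKO, 1 in FXS and 1 in S6K1, beside 4.88%, 0.0952% and 0.0293% of all genes. In mRNA none was called in any comparison.

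None of the 53 other iron genes was called by edgeR in any of the 18 comparisons either. In DKO against WT 14 of the 53 (26.4%) had an unadjusted p under 0.05 in mRNA, 4 (7.55%) in footprints and 8 (15.1%) in TE, beside 22.3%, 17.1% and 24.9% of all genes. The lowest adjusted p was that of Cdc42bpa mRNA in DKO against WT (0.0555, edgeR quasi-likelihood). Among these genes DESeq2 made 5 calls, all in DKO against WT: Abcg2, Cdc42bpa and Fbxl5 in mRNA and Alas2 and Isca1 in TE. limma voom made 1, Cdc42bpa mRNA in DKO against WT; these genes are named here after their values were seen.

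Across libraries, high Ftl1 went with low Tfrc in footprints, a relation noticed in the data and then computed. Over 15 footprint libraries Pearson's r of the log2 CPM values was -0.727 (permutation p = 0.00238, adjusted over 2 relations 0.00476, two-sided) and Spearman's rho was -0.657 (permutation p = 0.0098, adjusted 0.0196). These permutations move libraries across batches, although batch was called for both genes in footprints. Without the 2 libraries farthest from the median of Ftl1, r was -0.518 (permutation p = 0.0681). Within batches r was -0.829 in batch 2 (n = 4), -0.206 in batch 3 (n = 4) and -0.671 in batch 4 (n = 5), and batch 1 held only 2 libraries. In mRNA the pooled r was -0.294 (permutation p = 0.269) and rho -0.285 (permutation p = 0.283) over 16 libraries. Without the 2 mRNA libraries farthest from the median of Ftl1, r was 0.050 (permutation p = 0.866) and rho -0.103 (permutation p = 0.727). The batch-centred mRNA value below was computed only with all 16 libraries. Within mRNA batches 5 to 8 r was -0.589, -0.908, -0.730 and -0.938 (n = 4 each). After centring on batch r was -0.813 in mRNA (exact permutation within batches, two-sided p = 0.00281, adjusted over 2 relations 0.00562), and 8 of 14214 genes had a lower r with Ftl1. In footprints it was -0.639 (exact permutation p = 0.0349, adjusted 0.0349), and 1.53% of genes had a lower r. Genotype was not removed from any of these values. Each mRNA batch held 1 library per genotype, so within these batches the relation cannot be told apart from genotype differences. Mean Ftl1 mRNA by genotype was 486 CPM (DKO), 465 (WT), 458 (FXS) and 413 (S6K1). Mean Tfrc mRNA rose in that order: 69.0, 70.9, 77.8 and 86.7 CPM. Because the pair was picked after the relation was seen, the p-values above are not independent evidence of it.

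**Figure D5:**
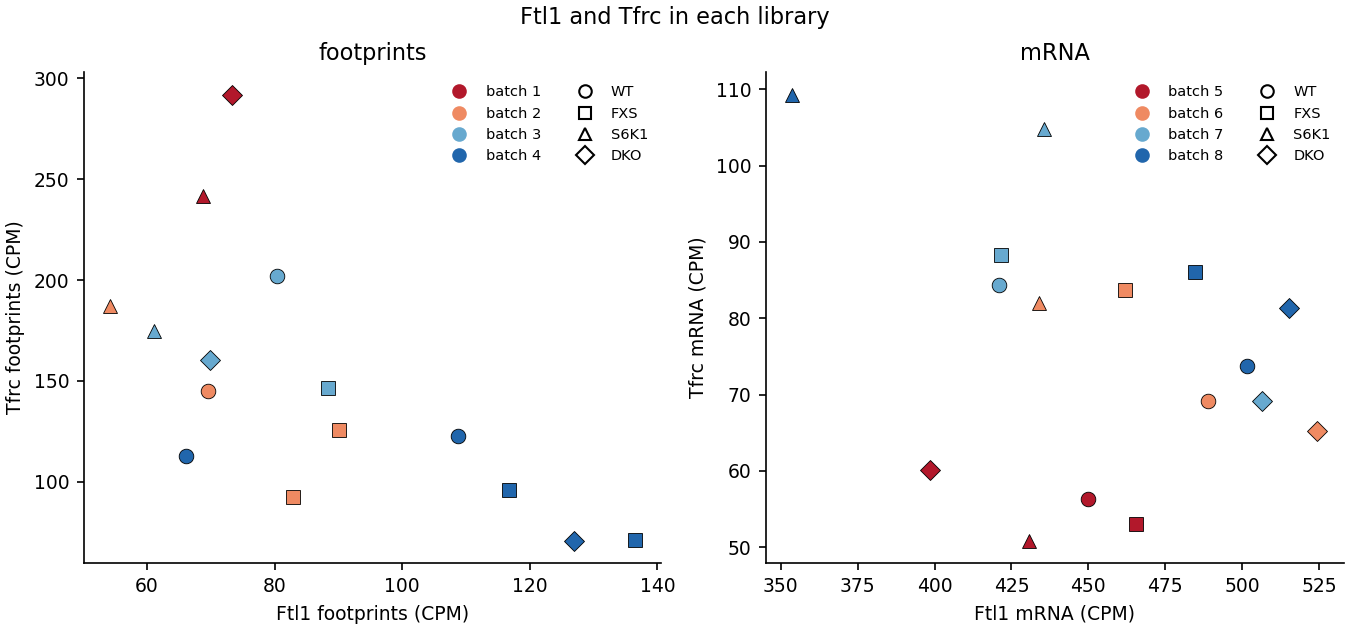
Tfrc against Ftl1 in each library, in CPM, for footprints (left) and mRNA (right), coloured by batch and shaped by genotype. In footprints, batch 4 holds most of the libraries with high Ftl1 and low Tfrc. In mRNA each batch, which holds 1 library per genotype, slopes down.

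The genes whose mRNA followed Ftl1 most closely over the 16 mRNA libraries, centred on batch, were Nubp1 (r = 0.949), a factor of cytosolic iron-sulphur assembly, the ribosomal protein gene Rpsa (0.926) and the metallothionein gene Mt3 (0.897). These are the highest of 14214 other genes. Depth was scaled and batch was centred, but genotype was not removed, and the part of cell makeup was not tested.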

How the data were processed

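Ribosome footprints and polyadenylated mRNA were measured in mouse cortex. The deposited tables hold raw counts per gene symbol and library. Per the submitters' processing notes, cutadapt 2.0, Bowtie2, TopHat2 and RSEM were used with build mm10; their roles are not given in the sources used here. The authors' deposited comparison tables give log2 fold changes, standard errors and adjusted p-values.

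Counts were tested with edgeR 4.0.16 in R 4.3.3 (robust quasi-likelihood F-test, filterByExpr by genotype, TMM within assay, batch and genotype in the model, all genotypes together). TE was the footprint contrast minus the mRNA contrast in 1 model with batch nested in assay. Footprints against mRNA within a genotype used TMM over both assays and no batch term. P-values were adjusted by the Benjamini-Hochberg method over all genes. limma 3.58.1 (voom) and DESeq2 1.42.0 were alternatives. The scripts were tested on simulated data. CPM values are TMM-scaled within assay, so their ratio differs from the fitted ratio by a shift shared by all genes.

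Same-batch libraries of different genotypes, centred on genotype, correlated with a median of 0.30 in mRNA (24 of 24 pairs over 0.1) and 0.32 in footprints (16 of 20), against -0.14 and -0.10 between batches; batch is the labels' own. The 7 genes, the other iron genes and the marker lists were chosen with earlier results of these data known. Other iron genes were named for the 3 highest and 3 lowest WT ratios, for up to 4 calls in each comparison (there were none), and for the 3 highest correlations with Ftl1 mRNA. A gene that this rule names is not reported here. Fth1 and Flvcr1 were not analysed here, and Ftmt, Scara5 and Hamp had too few counts. The planned comparison with genes of like coding length was not made, since coding lengths were not used here.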

Additional observations from a re-analysis of the deposited data

Results flagged for a closer look

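In 36 groups of 4 or 5 libraries, 5 held a library whose CPM lay far from the others by Dixon's criterion at the 95% level; chance flags about 1 in 20 groups. Ftl1 mRNA stood at 398.6 CPM in DKO replicate 1, with the others between 506.6 and 524.5, and at 353.8 CPM in S6K1 replicate 4, with the nearest at 430.7. Tfrc mRNA stood at 53.1 CPM in FXS replicate 1, which is in batch 5, with the nearest at 83.7. Slc11a2 mRNA stood at 37.4 CPM in DKO replicate 4, with the nearest at 30.2. Ireb2 footprints stood at 132.9 CPM in FXS replicate 3, with the nearest at 102.6.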

How the results depend on the processing

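In WT, 6 of 6 iron genes were called under each of the 14 alternatives run, and none reversed. Leaving out each WT library in turn gave 6 to 6 calls. The genotype comparisons gave 0 calls under every alternative run, with 1 exception: DESeq2 called 1 iron gene, Tfrc, in TE in FXS against WT, where it called 138 genes in all against 13 by edgeR; the cause was not tested. Leaving out each library in turn gave 0 to 0 calls in every genotype comparison. The fit with no replicate block, that is without the batch term, also gave 0 calls in each comparison, and over all genes it called 2 in DKO mRNA against 743 and 2 in DKO TE against 666. DESeq2 called 1085 and 1127 there. No paired analysis was possible for footprints against mRNA because the libraries of the assays share no batch. Scaling by library totals alone moved the median WT ratio from -0.04 to -0.37, and relative to the median each iron gene moved by under 0.02. Slc11a2 in DKO was no longer called without mRNA replicate 4 (-0.41, adjusted p = 0.0638, edgeR) or footprint replicate 2 (-0.45, adjusted p = 0.0717). Slc11a2 in S6K1 was called without mRNA replicate 1 (-0.40, adjusted p = 0.0330) and with library totals alone (-0.62, adjusted p = 0.00907). Slc40a1 footprints, at 8 to 43 counts per library, set the widest limits.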
